A study of Homo sapiens with 4 samples.

Results

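The histone genes of the HIST clusters were defined by name, as the genes whose symbol starts with HIST1H, HIST2H, HIST3H or HIST4H, leaving out 2 pseudogenes with PS in the symbol. This gave 63 of the 26726 genes listed, of which 46 were HIST1, 12 HIST2, 4 HIST3 and 1 HIST4 members. For 3 of them, HIST2H2BC, HIST2H2BD and HIST3H2BA, the deposited gene name itself says pseudogene. RNA sequencing was done on HN12 cells, an established line of human head and neck squamous cell carcinoma, with 2 libraries of ATAD3A knockout (KO) cells and 2 of the parental cells (WT). ATAD3A is a mitochondrial membrane ATPase. The KO cells had been made with CRISPR/Cas9 and grown out from single cells as clones #1 and #5, and which clone or clones gave the RNA was not given. A difference between KO and WT therefore cannot be told apart from a difference between a clone and its parental population. The labels give DMEM with serum and antibiotics for both groups, whereas the study's methods name DMEM/F12, and the methods describe duplicate cultures. P-values set the difference between the groups against the spread between libraries of a group, estimated in part from all tested genes. They cannot be taken to cover the spread between clones.

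Canonical histone genes are transcribed mostly in S phase, when new DNA has to be packaged. Their mRNAs are unusual among those of animals in ending with a conserved stem-loop in place of a poly(A) tail, and the stem-loop is bound by SLBP, which is needed for processing, translation and decay of the mRNA. NPAT, at histone locus bodies, promotes their transcription. Some of these genes also give polyadenylated transcripts that run past the stem-loop, and replacement histones such as H3F3B are expressed through the cell cycle from ordinary polyadenylated mRNAs. Whether the libraries were selected for poly(A) or depleted of ribosomal RNA is not given in the sources used here.

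The stem-loop is shown first because the way a transcript ends could set how a library samples it. In GENCODE release 29 (GRCh38), 32 members were found by identifier and 31 by symbol. A 16-nt core with a 6-nt stem and a 4-nt loop was searched for within 100 nt after the stop codon, as GG, 3 free letters, TTNTNA, 3 free letters and CC, in which the stem letters had to pair. It was found in 31 members, 22 to 67 nt after the stop, of which HIST2H2AA3 and HIST2H2AA4 were matched to the same GENCODE entry and are counted separately here, and in 2 of 19851 other coding genes (0.0101%). Another 31 members had under 60 nt of annotated sequence after the stop and could not be searched, and HIST1H2BJ had no match. Examples on GRCh38 follow, as letters of the sense strand with the core in capitals, for the members HIST2H2BF (chr1:149811880-149811905, minus), HIST2H2BE (chr1:149886183-149886208, minus), HIST3H2A (chr1:228457364-228457389, minus), HIST1H2AC (chr6:26124664-26124689, plus), HIST1H2BD (chr6:26158582-26158607, plus), HIST4H4 (chr12:14770719-14770744, minus) and HIST1H4I (chr6:27139649-27139674, plus).
HIST2H2BF: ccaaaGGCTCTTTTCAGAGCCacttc
HIST2H2BE: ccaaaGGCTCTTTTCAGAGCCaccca
HIST3H2A: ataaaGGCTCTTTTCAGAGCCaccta
HIST1H2AC: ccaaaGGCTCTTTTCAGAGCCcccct
HIST1H2BD: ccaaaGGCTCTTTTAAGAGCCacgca
HIST4H4: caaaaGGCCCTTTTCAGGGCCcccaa
HIST1H4I: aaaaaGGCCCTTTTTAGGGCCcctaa

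The core came in 6 forms. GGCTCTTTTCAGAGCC was shared by 16 members of the H2A, H2B and H3 families, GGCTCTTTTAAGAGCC by 5 members and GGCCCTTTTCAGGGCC by 5 members of the H4 family. For HIST1H2BN, 1 of the 16, the core came from a transcript that runs into HIST1H2AL. It lies just past the annotated end of HIST1H2AL, which itself could not be searched. Another annotated transcript of HIST1H2BN also held a match within 100 nt after its stop and ran 377 nt past it. HIST2H2BF, HIST2H2BE and HIST3H2A have the same core, and of these HIST2H2BF passed the test between KO and WT cells. In 21 of the 31 members an annotated transcript ran over 200 nt past the loop. These were 11 of the 13 such members with enough reads to be tested and 10 of the 18 without.

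Promoters are shown for the 4 members that passed the test between KO and WT. RefSeq (GRCh38.p14) gave the window from 250 nt before to 50 nt after the start for 55 members, and 3 elements known from histone promoters were searched on both strands: the octamer ATTTGCAT, to which the factor Oct-1 (POU2F1) binds, CCAAT and TATAAA. Overlapping matches are shown as 1 stretch of capitals. The octamer stood in 21 of 55 member windows (38.2%) and in 1.80% of 27305 windows of all genes. It stood in 8 of 13 H2A and 12 of 16 H2B windows. Windows of neighbours read in opposite directions can overlap, as for HIST1H2AC and HIST1H2BC, so that 1 octamer can count for both members. CCAAT was in 83.6% of member windows and 35.7% of all, with 1 of 10 H4 windows holding it, and TATAAA in 65.5% and 12.0%. The windows below, 5′ to 3′ on the sense strand, belong to HIST2H2AC (chr1:149886668-149886967, plus), HIST1H2BK (chr6:27146809-27147108, minus), HIST2H2BF (chr1:149812321-149812620, minus) and HIST4H4 (chr12:14771082-14771381, minus).
HIST2H2AC: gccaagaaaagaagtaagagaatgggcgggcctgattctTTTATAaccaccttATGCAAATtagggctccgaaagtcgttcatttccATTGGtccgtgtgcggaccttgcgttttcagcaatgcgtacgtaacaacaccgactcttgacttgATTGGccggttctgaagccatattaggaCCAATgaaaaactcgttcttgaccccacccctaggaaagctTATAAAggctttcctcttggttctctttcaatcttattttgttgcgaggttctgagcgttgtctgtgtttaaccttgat
HIST1H2BK: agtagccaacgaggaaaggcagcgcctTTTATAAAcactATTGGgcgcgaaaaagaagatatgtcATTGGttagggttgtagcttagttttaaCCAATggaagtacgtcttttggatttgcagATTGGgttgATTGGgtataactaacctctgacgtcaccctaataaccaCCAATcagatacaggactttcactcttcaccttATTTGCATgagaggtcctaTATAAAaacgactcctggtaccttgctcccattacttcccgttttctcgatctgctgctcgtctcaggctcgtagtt
HIST2H2BF: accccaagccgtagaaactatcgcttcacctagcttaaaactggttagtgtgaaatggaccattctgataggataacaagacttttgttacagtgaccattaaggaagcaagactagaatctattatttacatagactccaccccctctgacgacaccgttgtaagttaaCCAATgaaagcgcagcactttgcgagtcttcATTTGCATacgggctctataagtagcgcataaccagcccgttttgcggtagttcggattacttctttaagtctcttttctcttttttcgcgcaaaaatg
HIST4H4: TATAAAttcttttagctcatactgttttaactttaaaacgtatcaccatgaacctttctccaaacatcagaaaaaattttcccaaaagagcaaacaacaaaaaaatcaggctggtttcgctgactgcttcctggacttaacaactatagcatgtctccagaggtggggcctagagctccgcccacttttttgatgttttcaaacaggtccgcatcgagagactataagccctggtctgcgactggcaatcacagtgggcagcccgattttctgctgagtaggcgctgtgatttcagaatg

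HIST2H2AC, which rose in KO cells, and HIST2H2BF, which fell, both hold the octamer and CCAAT. HIST4H4 holds neither of them in this window. HIST2H2AC is transcribed away from HIST2H2BE, with 322 nt between the annotated genes, so that much of its window is shared with that of its neighbour.

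The libraries held 18943547 and 16805766 counts in KO and 15173766 and 13569971 in WT cells. A level in CPM is a count divided by the library total in units of 1000000, after TMM scaling, a factor that corrects for library composition. A deposited RPKM value is a count divided by the plain library total and by the length of the gene model, without TMM scaling. Differences between KO and WT cells in RPKM and in CPM are therefore not on the same scale. ATAD3A had 702 and 492 counts in KO and 1802 and 1471 in WT cells. The change on the log2 scale was -1.70 ± 0.0907 (SE), with an adjusted p of 1.58e-17 in edgeR's quasi-likelihood test, so reads remained at the targeted gene and the group means differed in the labelled direction. All 9 squamous epithelial markers were at 1 CPM or more in every library. Their summed level was 4751 and 4727 CPM in KO and 2024 and 2033 CPM in WT cells, with 5 of the 9 higher and 4 lower at an adjusted p under 0.05. Of the other markers, 4 of 6 for fibroblasts, 3 of 5 for leukocytes and 2 of 3 for endothelial cells were listed, with summed levels over the 4 libraries of 11.7 to 14.6, 2.65 to 3.96 and 0.852 to 1.84 CPM, and 3 of the 4 fibroblast markers had 3 counts or fewer in every library. The gain in summed squamous markers moved with every KO and WT difference below, and its part in them was not tested. In bulk RNA, fewer cells expressing a histone gene and less RNA per cell cannot be told apart.

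Few reads were counted on the canonical histone genes. In all, 37 of the 63 members never reached 10 counts in any library, 27 had 0 counts in at least 1 library and 11 had 10 counts or more in every library. A filter on low counts kept 21 members, 15 of HIST1, 4 of HIST2, 1 of HIST3 and 1 of HIST4. The annotated gene models were short, with a median of 785 nt for tested and 477 nt for untested members beside 3137.5 nt for all tested genes. In 12 members, at least 50% of the 50-nt stretches recur in other annotated genes, and 1 of these 12 was tested. How the counting treated such reads is not given. For these members, low expression and reads lost to sharing cannot be told apart.

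The members together took 102 and 96.9 CPM in KO and 97.3 and 104 CPM in WT cells, means of 99.6 ± 3.78 and 100.4 ± 4.39 (SD, n = 2). The groups overlapped. HIST1H2BK, which encodes a core histone of the H2B family, alone gave 54.8% and 51.4% of the member counts in KO cells (exact 95% binomial intervals 52.5 to 57.1% and 48.9 to 53.9%) and 45.6% and 43.9% in WT cells (43.1 to 48.2% and 41.4 to 46.5%). These intervals cover counting error only. Without HIST1H2BK the sum was 46.2 and 47.1 CPM in KO and 52.9 and 58.1 CPM in WT cells. Both KO libraries then lay below both WT libraries, as they also did when scaled by plain library totals. Because HIST1H2BK was higher in both KO libraries and the totals overlapped, leaving it out lowers the remainder in KO relative to WT cells. This remainder is not evidence separate from the level of HIST1H2BK. With 2 libraries against 2, an exact permutation test cannot go below a two-sided p of 0.333.

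**Figure D1:**
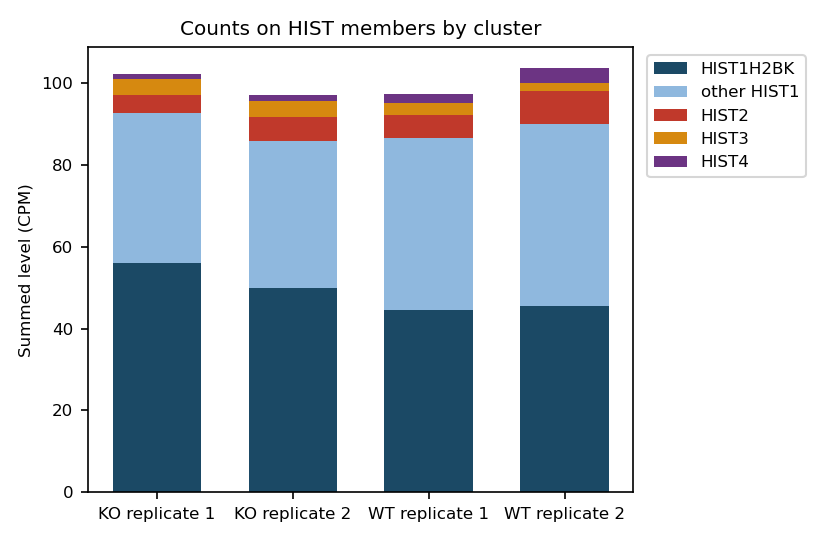
Summed levels of HIST members in CPM for each of the 4 libraries, stacked as HIST1H2BK, the other HIST1 members, HIST2, HIST3 and HIST4. The full height is 96.9 to 104 CPM in all 4 libraries, while the HIST1H2BK segment is taller in both KO libraries.

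By cluster, the HIST1 members on chromosome 6 summed to 92.7 and 85.7 CPM in KO and 86.5 and 89.9 CPM in WT cells, which overlapped. Without HIST1H2BK they summed to 36.6 and 35.9 CPM in KO and 42.1 and 44.4 CPM in WT cells. Here too, leaving out HIST1H2BK lowers the remainder in KO cells. On chromosome 1, HIST2 summed to 4.22 and 5.97 CPM in KO and 5.61 and 8.11 CPM in WT cells, and HIST3 to 4.06 and 3.96 against 2.90 and 1.87 CPM. HIST2 overlapped between the groups, and HIST3 was higher in both KO libraries. HIST3H2A alone gave 64 and 58 of the 75 and 65 HIST3 counts in KO cells. In WT cells it gave 39 and 22 of 45 and 26. The HIST2 and HIST3 sums together were 8.29 and 9.92 CPM in KO and 8.51 and 9.97 CPM in WT cells.

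By family, the linker histones H1, which bind DNA between nucleosomes, summed to 9.32 and 9.98 CPM in KO and 10.5 and 7.61 CPM in WT cells. The H2A genes summed to 14.4 and 15.2 against 13.6 and 13.6 CPM. The higher H2A sums in KO cells rest on 2 genes. HIST3H2A gave 3.47 and 3.53 against 2.51 and 1.58 CPM, and HIST2H2AC 1.03 and 1.58 against 0.322 and 0.359 CPM. HIST1H2AC, with more counts than either, overlapped at 7.15 and 5.60 against 6.96 and 8.18 CPM. The H2B genes summed to 71.9 and 66.8 CPM in KO and 65.1 and 71.8 CPM in WT cells, which overlapped. The H2B genes without HIST1H2BK summed to 15.9 and 17.0 against 20.7 and 26.3 CPM. H1 overlapped between the groups, H2A was higher, and H2B without HIST1H2BK lower, in both KO libraries. The last again follows the removal of a member that was higher in KO cells. H3 and H4, which form the tetramer at the centre of the nucleosome, were the least counted families. H3 genes summed to 2.82 and 2.62 CPM in KO and 2.96 and 3.80 CPM in WT cells, and H4 genes to 3.79 and 2.31 against 5.16 and 6.75 CPM. Both families were lower in both KO libraries, on the TMM scale and by library totals. The H3 sums rest on 52 and 43 counts in KO and 46 and 53 in WT cells. The 1 tested H3 gene, HIST1H3E, had a log2 fold change of 0.58, with groups that overlapped. HIST4H4 alone gave 24 and 21 of the 70 and 38 H4 counts in KO cells. In WT cells it gave 36 and 51 of 80 and 94.

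Of the 21 tested members, 2 rose (HIST1H2BK and HIST2H2AC) and 2 fell (HIST2H2BF and HIST4H4) in KO cells at an adjusted p under 0.05. These 4 were 19.0% of the tested members, while 39.5% of the 15104 tested genes passed, 20.4% higher and 19.1% lower. HIST2H2AC reached 10 counts only in the KO libraries and HIST2H2BF only in the WT libraries. The filter on low counts thus kept each through the group where it was higher. Neither was in the fit with at least 10 counts in every library. At an unadjusted p under 0.05 there were 6 members, beside 46.6% of all tested genes. With an unadjusted p under 0.05 and the limits on the fold that the study set, 2 members were higher and 3 lower, beside 17.0% and 12.2% of all tested genes. DESeq2 called 0 members higher and 1 lower, and the share of all tested genes that it called is not given here. The members had a median standard error of 0.553 on the log2 scale against 0.132 for all tested genes, with a range of 0.0916 to 0.758. The median log2 fold change was -0.24 for the members, with 8 above and 13 below 0, and -0.0042 for all tested genes.

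**Figure D2:**
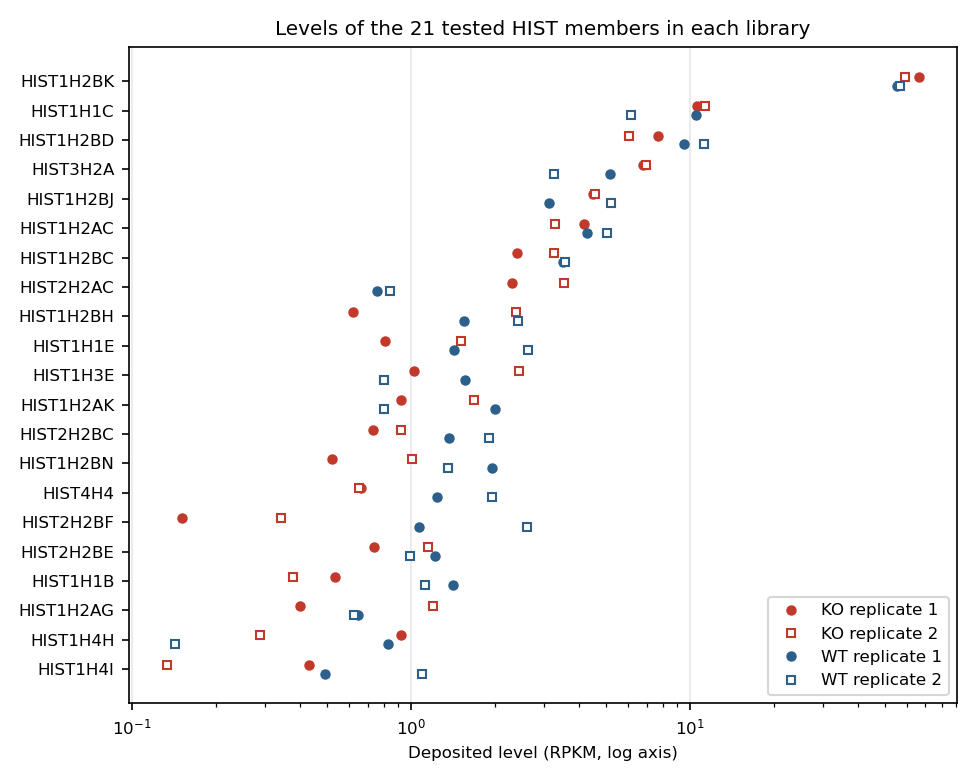
Deposited level in RPKM (log axis) of the 21 tested members in each KO (red) and WT (blue) library, ordered by mean level. HIST1H2BK stands near 60 RPKM and the other members near 11 RPKM or below. KO and WT overlap for 9 members, and KO is above WT for 4 and below it for 8.

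Among the linker histones, HIST1H1C (H1.2) was the second most abundant member per length, at 10.9 ± 0.494 RPKM in KO and 8.34 ± 3.11 RPKM in WT cells (SD, n = 2). Its counts were 147 and 139 in KO and 117 and 61 in WT cells. The groups did not overlap in CPM, and the log2 fold change of 0.45 ± 0.23 (SE) did not pass (adjusted p = 0.113). Without the first WT library it did, at 0.91 (adjusted p = 0.00969). Such a fit leaves 1 library in a group and assumes that it varies as the other group does, here and wherever a library was left out. HIST1H1E (H1.4) had 12 and 20 counts against 17 and 28, with a log2 fold change of -0.73 ± 0.55. HIST1H1B (H1.5) had 8 and 5 counts against 17 and 12, at -1.38 ± 0.69 (adjusted p = 0.109). HIST1H1B was lower in both KO libraries and HIST1H1E overlapped between the groups.

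Among the H2A genes, HIST2H2AC had 19 and 26 counts in KO and 5 and 5 in WT cells. Both KO libraries lay above both WT libraries, at 1.03 and 1.58 against 0.322 and 0.359 CPM. The log2 fold change was 1.91 ± 0.67 (SE), or 3.76-fold, and passed (adjusted p = 0.0210). It did not pass without the first WT (1.84, adjusted p = 0.126), the second WT (1.99, 0.0907) or the second KO library (1.58, 0.124), nor in DESeq2 (1.94, 0.0805). In GENCODE, 30.5% of the 50-nt stretches of HIST2H2AC also occur in other genes, its near copies HIST2H2AA3, HIST2H2AA4 and HIST2H2AB, and how the counting treated such reads is not given in the sources used here. Those copies had 0 to 3 counts in each library.

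HIST3H2A was at 6.88 ± 0.104 RPKM in KO and 4.22 ± 1.35 RPKM in WT cells. Its counts were 64 and 58 in KO and 39 and 22 in WT cells. The groups did not overlap, and the log2 fold change of 0.76 ± 0.36 (SE) did not pass (adjusted p = 0.0922). It lies beside HIST3H2BB, an H2B gene read in the opposite direction 233 nt away, which had 2 and 6 counts in KO and 3 and 3 in WT cells. HIST1H2AC had 132 and 92 counts in KO and 108 and 114 in WT cells, at a log2 fold change of -0.24 ± 0.22. HIST1H2AG, at 0.38, and HIST1H2AK, at -0.07, also overlapped between the groups, and the sign of each turned when 1 library was left out, to -0.59 for HIST1H2AG without the second KO library and to 0.75 and 0.30 for HIST1H2AK without the first WT or the first KO library.

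Among the H2B genes, HIST1H2BK had 1035 and 818 counts in KO and 689 and 634 in WT cells, or 56.1 and 49.8 against 44.4 and 45.5 CPM. The KO libraries lay above the WT libraries on both scales, with RPKM means of 63.0 ± 5.14 and 56.2 ± 1.13. The log2 fold change was 0.24 ± 0.092 (SE), a 1.18-fold difference, and passed (adjusted p = 0.0375), although correcting for GC content and model length turned it to -0.19 (adjusted p = 0.0831). It did not pass with library totals only (0.17, adjusted p = 0.151), in DESeq2 (0.23, 0.124), without the first WT (0.23, 0.161), the second WT (0.25, 0.102) or the first KO library (0.15, 0.315). The deposited lengths give it a model of 820 nt, whereas GENCODE release 29 lists 381 nt, of which 74.1% of 50-nt stretches recur in other genes.

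HIST2H2BF, an H2B gene of the HIST2 cluster, had 3 and 6 counts in KO and 17 and 37 in WT cells. The groups did not overlap, at 0.163 and 0.365 against 1.10 and 2.66 CPM, and the first KO library was at the floor of 3 counts set here for detection. The log2 fold change was -2.81 ± 0.68 (SE), 7.0-fold higher in WT cells, and passed (adjusted p = 0.00102). Without the second WT library it was -2.05 and did not pass (adjusted p = 0.0912), and it passed in DESeq2 (-2.84, adjusted p = 0.00483). Of its 50-nt stretches, 25.7% recur in other genes, and its annotated exons overlap those of FCGR1A on the opposite strand, which was not analysed here.

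HIST1H2BD was lower in both KO libraries, with 115 and 80 counts against 114 and 120, or 6.86 ± 1.17 against 10.4 ± 1.19 RPKM (SD, n = 2). The log2 fold change of -0.52 ± 0.22 (SE) did not pass (adjusted p = 0.0597), and did so without the first KO library (-0.71, adjusted p = 0.0341) and with the correction for GC content and length (-0.72, adjusted p = 0.00853). HIST1H2BC had 30 and 36 counts against 35 and 32, at -0.26 ± 0.41, and HIST1H2BJ 61 and 55 against 34 and 51, at 0.19 ± 0.34. The sign of HIST1H2BJ turned without the first WT library, to -0.13, and with the GC and length correction, to -0.05. HIST1H2BH had 5 and 17 counts against 10 and 14 and a log2 fold change of -0.35 ± 0.68, which was 0.33 without the first KO library.

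HIST2H2BE, the neighbour of HIST2H2AC, had 31 and 43 counts in KO and 41 and 30 in WT cells, with a log2 fold change of -0.17 ± 0.40 (SE) that was 0.12 without the first KO library. Its groups overlapped, unlike those of HIST2H2AC across the shared promoter region, and the difference between the pair was not tested. HIST2H2BC, named a pseudogene in the deposited table, had 8 and 9 counts against 12 and 15 (-0.90 ± 0.66), and HIST1H2BN 7 and 12 against 21 and 13 (-1.05 ± 0.63). Both were lower in both KO libraries, and neither passed. The annotated exons of HIST2H2BC overlap those of HIST2H2BD on the opposite strand, and those of HIST1H2BN overlap HIST1H2AL and HIST1H2AK, so their reads could be split or shared in the counting.

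Among the H3 and H4 genes, HIST4H4, which lies alone on chromosome 12, had 24 and 21 counts in KO and 36 and 51 in WT cells. The groups did not overlap, at 1.30 and 1.28 against 2.32 and 3.66 CPM. The log2 fold change was -1.20 ± 0.42 (SE), 2.30-fold higher in WT cells, and passed (adjusted p = 0.0215). It did not pass without the second WT (-0.84, adjusted p = 0.293), the first KO (-1.22, 0.0616) or the second KO library (-1.19, 0.0585), nor in DESeq2 (-1.21, 0.0665). Of its 50-nt stretches 0.1% recur in other genes.

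HIST1H4I had 11 and 3 counts against 10 and 20, at -1.36 ± 0.70 (adjusted p = 0.127), and was lower in both KO libraries in CPM. Without the first KO library, which leaves 1 KO library with 3 counts and a spread taken from WT cells alone, the value was -2.44 (adjusted p = 0.0462). HIST1H4H, with 18 and 5 against 13 and 2 counts, and HIST1H3E, the 1 tested H3 gene, with 9 and 19 against 11 and 5, differed as much within as between the groups. Their log2 fold changes of 0.37 and 0.58 turned to -0.36 and -0.71 for HIST1H4H without the second WT or the first KO library, and to -0.15 for HIST1H3E without the second KO library.

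Both KO libraries were above both WT libraries in CPM for 4 tested members and below them for 8, and the other 9 overlapped, beside 34.1% above and 34.0% below, or 68.1% in either direction, over all tested genes. The median log2 fold change was -0.24 for the 15 HIST1 members, with 6 above and 9 below 0, and -0.17 for the 5 members of HIST2 and HIST3, which ran from -2.81 to 1.91. Over the 4 pairs of a KO and a WT library, the medians ran from -0.39 to -0.034 for HIST1 and from -0.45 to 0.23 for HIST2 and HIST3. The 2 medians differed by less than this spread. Without the first KO library the HIST1 median was -0.055 and without the second -0.48, while that of HIST2 and HIST3 was -0.52 without the second and 0.12 without the first.

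**Figure D3:**
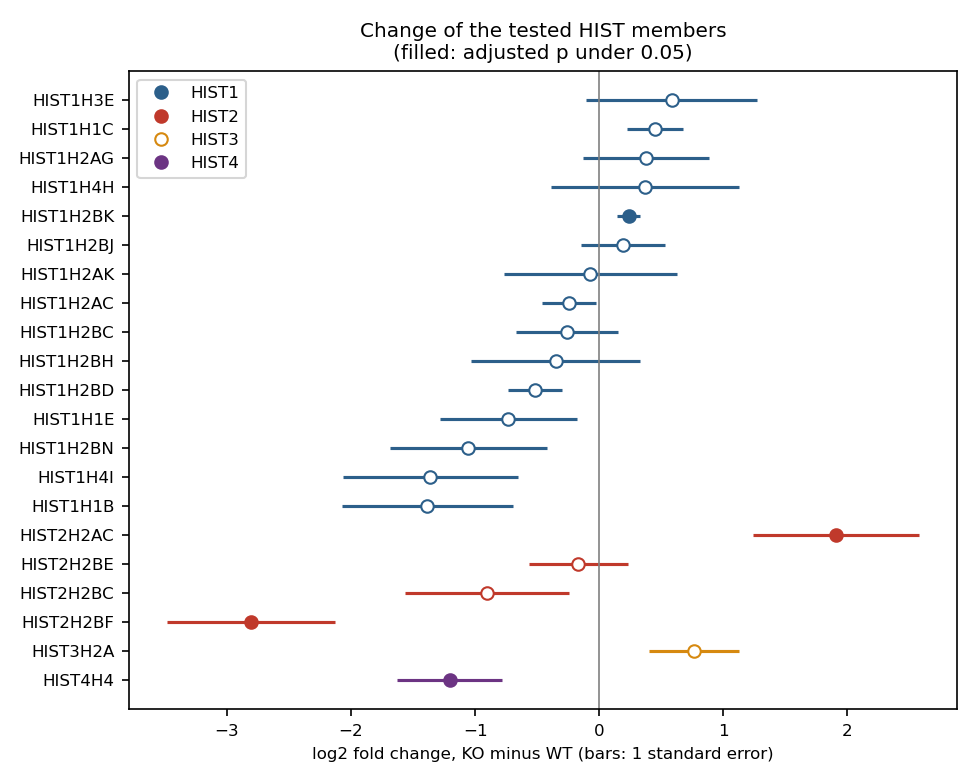
Log2 fold change, KO minus WT, of the 21 tested members with 1 standard error, coloured by cluster, with filled points for an adjusted p under 0.05. The filled points are HIST1H2BK, HIST2H2AC, HIST2H2BF and HIST4H4, and the last 3 lie farther from 0 with far wider errors than HIST1H2BK.

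The 42 untested members held 124 and 70 counts in KO and 128 and 153 in WT cells together, or 6.72 and 4.26 against 8.25 and 10.98 CPM. Both KO libraries lay below both WT libraries. The median member had 10 counts summed over the 4 libraries. In 2 of the 42 (4.76%) the counts of the groups did not overlap and reached 10 in a library, beside 4.19% of all untested genes. These were HIST1H2AE, with 5 and 1 counts in KO and 6 and 18 in WT cells, and HIST1H2BF, with 0 and 5 against 6 and 15. At this depth no difference could be shown for single members of this kind.

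Lists of genes that work beside the HIST members were compared in the same test. Over all tested genes in that test, 20.4% rose and 19.1% fell at an adjusted p under 0.05. Of 11 tested replacement histones and solitary variants, which are expressed outside the clusters, 4 rose and 0 fell at an adjusted p under 0.05, or 36.4% beside the 39.5% of all tested genes, with a median log2 fold change of 0.08. They were H2AFJ (0.78 ± 0.14 SE), H1F0 (0.53 ± 0.067), a linker histone linked to differentiated cells, H1FX (0.48 ± 0.14) and H2AFX (0.17 ± 0.056), which is phosphorylated at DNA breaks. Without the first WT library 2 passed as higher. H3F3B was at 263 RPKM in KO and 258 RPKM in WT cells and H2AFZ at 181 and 190 RPKM, above the level of HIST1H2BK. With TMM scaling, the log2 fold change was 0.097 ± 0.050 (SE) for H3F3B and -0.0013 ± 0.058 for H2AFZ.

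Of 20 genes for transcription and processing of histone mRNA, 2 rose and 8 fell, or 50% beside 39.5%, with a median of 0.015. UPF1, which acts in decay of histone mRNA, and LSM10, a subunit of the U7 particle needed for processing these mRNAs, rose by 0.34 ± 0.056 and 0.27 ± 0.11 on the log2 scale. POU2F1, the octamer factor, changed by -0.65 ± 0.076 and LSM11, the partner of LSM10, by -0.44 ± 0.15. CPSF2, a subunit of the cleavage complex, changed by -0.40 ± 0.068 and CDK2, the kinase that activates NPAT, by -0.39 ± 0.087. NPAT itself was at -0.30 ± 0.11 (adjusted p = 0.0314) and CASP8AP2, another protein of histone locus bodies, at -0.38 ± 0.12 (adjusted p = 0.00807). SLBP had 1775 and 1385 counts in KO and 1230 and 1307 in WT cells, at 0.06 ± 0.080 (adjusted p = 0.580). Leaving out 1 library at a time, 1 to 4 genes of this list passed as higher, with 1 without the first WT or the second KO library and 4 without the first KO library, and 5 to 7 passed as lower, with 5 without either WT library or the first KO library.

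Of 17 tested histone chaperones and acetylation genes, 1 rose and 6 fell, or 41.2% beside 39.5%, with a median of -0.12. TONSL, which reads new histones at forks, rose by 0.43 ± 0.070, and its partner MMS22L changed by -0.42 ± 0.097. ASF1A, which hands over H3 with H4, was at -0.68 ± 0.15, ATRX at -0.60 ± 0.068 and DAXX, the H3.3 chaperone that works with ATRX, at -0.30 ± 0.081, and all 3 passed. Of 24 S phase genes, 4 rose and 9 fell, or 54.2% beside 39.5%, with a median of -0.13. UHRF1 (0.27 ± 0.062), POLE (0.20 ± 0.059), FEN1 (0.16 ± 0.063) and MCM4 (0.13 ± 0.047) were higher, whereas RRM1 (-0.66 ± 0.056) and TYMS (-0.59 ± 0.088), which make DNA precursors, and RFC4 (-0.36 ± 0.084), of the clamp loader, were lower. Without either WT library, 1 S phase gene passed as higher. PCNA was at 0.13 ± 0.064 and did not pass (adjusted p = 0.114).

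**Figure D4:**
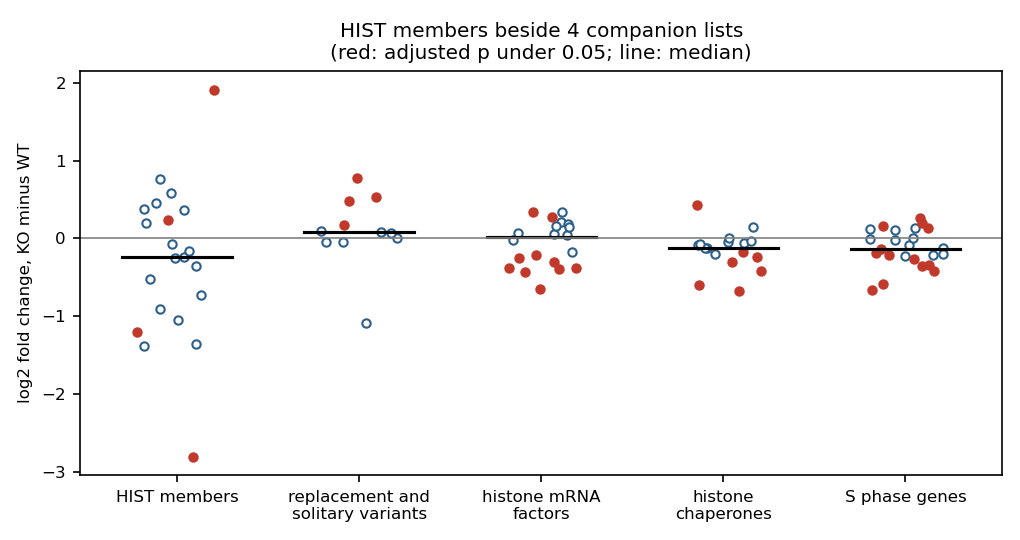
Log2 fold change, KO minus WT, of the tested HIST members and of 4 companion lists, with 1 point a gene, red for an adjusted p under 0.05 and a line at the median. The HIST members spread from -2.81 to 1.91, and the companion genes lie between -1.09 and 0.78.

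The genes around the clusters were compared in the same way, as protein-coding genes that are no histone genes and lie within 1 Mb of the outermost members. Around HIST1, 0 of 25 tested genes rose and 14 fell (edgeR's quasi-likelihood test, adjusted p under 0.05). These 14 were 56.0%, where 19.1% of all tested genes fell, 20.4% rose and 39.5% passed in either direction. Of the 25 log2 fold changes, 24 were below 0, and the median was -0.57. Among the 25 genes, 12 lie between the first and the last HIST1 member, and 7 of them fell (median -0.42). ZSCAN31 (-1.87 ± 0.31 SE) and ZKSCAN3 (-0.99 ± 0.27), both zinc finger genes, and the butyrophilin gene BTN2A2 (-0.97 ± 0.16) were among those with the largest changes. BTN2A2 had 154 and 175 counts in KO and 292 and 255 in WT cells, with no overlap.

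The HIST1 members stood among these genes with a median of -0.24, and the 1 member that passed, HIST1H2BK, was on the other side of 0 from the called neighbours in that fit. The difference between members and neighbours was not tested. Around HIST2, 5 of 21 tested genes rose and 6 fell (52.4%, median -0.12). ANP32E, a chaperone that removes H2A.Z, was the lowest called at -0.75 ± 0.060, and HORMAD1 (-0.52 ± 0.13), ADAMTSL4 (-0.38 ± 0.16) and ARNT (-0.38 ± 0.080) also fell. ECM1 (0.47 ± 0.18), CTSS (0.43 ± 0.14), TARS2 (0.30 ± 0.088) and MCL1 (0.28 ± 0.054) rose. Without the first WT library 1 gene passed as higher and 3 as lower, and without the first KO library 3 as higher.

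Around HIST3, 7 of 18 tested genes rose and 1 fell (44.4%, median 0.19). WNT3A rose from 8 and 9 counts in WT to 56 and 29 in KO cells (2.04 ± 0.54 SE), WNT9A by 0.65 ± 0.18, the guanylate kinase GUK1 by 0.56 ± 0.069 and MRPL55 by 0.51 ± 0.13, and CCSAP was at -0.48 ± 0.13. Without the first KO library, 4 passed as higher. Around HIST4H4, 1 of 7 tested genes rose, ARHGDIB at 0.46 ± 0.060, and 2 fell, ATF7IP at -0.25 ± 0.085 and WBP11 at -0.18 ± 0.064, and neither of these passed without the first WT or the first KO library, which left 0 lower.

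**Figure D5:**
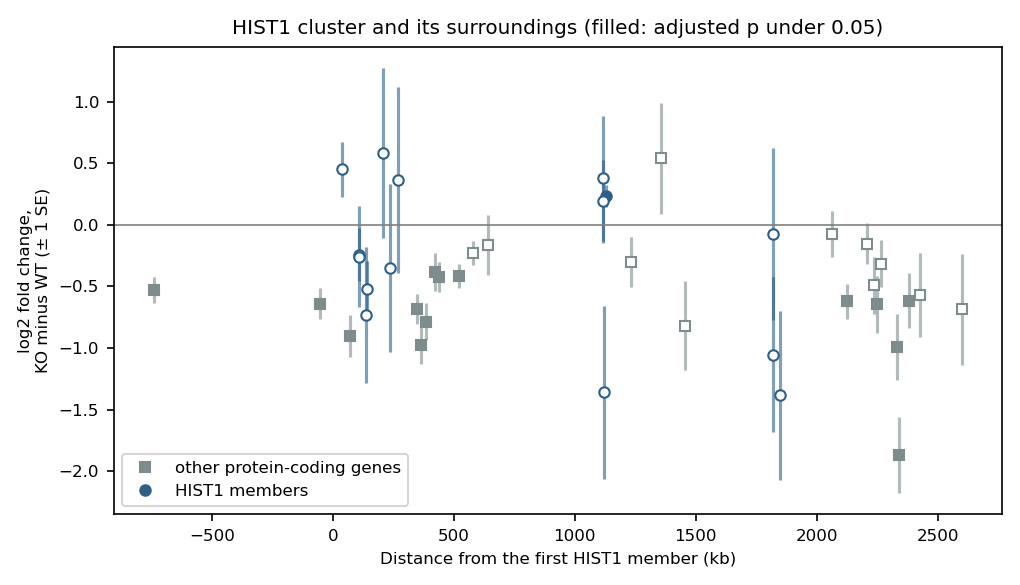
Log2 fold change, KO minus WT, with 1 standard error against distance in kb from the first HIST1 member, for tested HIST1 members (blue circles) and other protein-coding genes (grey squares), filled at an adjusted p under 0.05. All but 1 of the 25 neighbours lie below 0, while 6 of the 15 members lie above it.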

How the data were processed

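RNA was sequenced from 2 ATAD3A KO and 2 parental WT libraries of HN12 cells. The authors deposited raw counts per gene for 26726 genes and a second table with RPKM values that they made from these counts with 1 length per gene. Per the submitters' processing notes, CASAVA, STAR 2.5, HTSeq, edgeR 3.16.5 and DESeq2 were used with hg19, and the annotation, strand setting and poly(A) selection are not given in the sources used here. The second table also holds the authors' fold changes and p-values, which were not used.

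On the deposited counts, filterByExpr on the group left 15104 genes, libraries were scaled by TMM (factors 0.975 to 1.03), and glmQLFit and glmQLFTest of edgeR 4.0.16 (R 4.3.3) were run on group alone, with Benjamini-Hochberg adjustment over all tested genes. Standard errors were worked out as the fold change over the root of its F statistic. The biological coefficient of variation was 5.88%. The floor of 3 counts is 0.163 to 0.215 CPM. The code was tested on simulated data. Members, gene lists and tests were chosen with earlier results of these data known. Genes named are the called members, the 10 members highest in RPKM, tested HIST2, HIST3 and HIST4 members, untested members without overlap and 10 counts, and up to 4 called genes a direction in each other list. Other tested members, and H3F3B, H2AFZ, NPAT, CASP8AP2, SLBP and PCNA, are named beside these, after their values were seen. Some genes that the rule covers are not reported here. Alternatives were edgeR's exact test, DESeq2 1.42.0 and its size factors, library totals, no filter, a minimum of 10 counts in each library, the replicate number as a block, limma 3.58.1 on log2(RPKM + 1) and log2(RPKM + 0.1) and leaving out each library, and, chosen after seeing the data, splines (4 degrees of freedom) for GC content and length. Sequences came from GENCODE release 29 (GRCh38) and RefSeq (GRCh38.p14), not from hg19. A symbol listed for several RefSeq genes was matched by position.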

Additional observations from a re-analysis of the deposited data

How the results depend on the processing

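Depth limited the tests, and the tested members had from 38 counts upward over the 4 libraries, and standard errors of 0.0916 to 0.758 on the log2 scale. Of 284 single-gene values under an alternative, 240 kept their direction and side of the threshold, 17 lost and 16 gained significance and 11 turned direction, and the causes were not tested. Members passed as higher in 0 cases with DESeq2 and with the GC and length correction, and in 1 with library totals only and with at least 10 counts in every library (2 in the report's fit). Members passed as lower in 1 case with DESeq2 and with at least 10 counts in every library, in 6 and 5 with limma on log2(RPKM + 1) and log2(RPKM + 0.1), and in 4 with the GC and length correction (2 in the report's fit). Leaving out each library gave 0 to 1 higher and 0 to 3 lower members, HIST1 medians of -0.48 to -0.055 and HIST2 and HIST3 medians of -0.52 to 0.12. With at least 10 counts in every library these medians were -0.022 and 0.30, over fewer genes. The shares of all tested genes that passed under these alternatives are not given here. The counts of members and of listed genes under them are therefore not read as results about those genes. The reversals were HIST1H2BK (-0.19) and HIST1H2BJ (-0.048) with the GC and length correction and, leaving out 1 library, HIST1H2AG (-0.59 to 0.97), HIST1H2AK (-0.57 to 0.75), HIST1H2BH (-1.57 to 0.33), HIST1H2BJ (-0.13 to 0.60), HIST1H3E (-0.15 to 1.17), HIST1H4H (-0.71 to 2.13) and HIST2H2BE (-0.52 to 0.12).

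Of the companion lists, the histone mRNA genes had 1 higher with DESeq2, library totals only, no filter and both limma fits, and 5 lower with DESeq2 and both limma fits and 3 lower with the GC and length correction, which also gave 1 lower replacement histone and 2 higher chaperone genes. S phase genes had 1 higher with library totals only and both limma fits. Leaving out each library gave 2 to 4 higher replacement histones, 1 to 4 higher and 5 to 7 lower histone mRNA genes and 1 to 4 higher S phase genes. Around HIST2, 3 genes were higher with DESeq2 and library totals only and 1 with both limma fits, and leaving out each library gave 1 to 4 higher and 3 to 5 lower. Around HIST3, 4 were higher with both limma fits, and 4 to 7 leaving out each library. Around HIST4H4, 2 were higher with the GC and length correction, and 0 lower with it and with DESeq2, and 0 to 2 lower leaving out each library.

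Groups share replicate numbers, and the deviations of same-numbered libraries from their group means had a correlation of -0.0254. This gave no sign of pairing, but 1 correlation with 2 libraries in each group cannot exclude it. With the replicate number as a block, 2 members were higher and 2 lower, and 2 S phase genes were higher (4 without the block).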

Other observations

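The 2 HIST pseudogenes that were left out by name were close to the floor. HIST1H1PS1 had 1 and 5 counts in KO and 1 and 0 in WT cells, and HIST1H2APS4 had 0 and 0 counts in KO and 6 and 5 in WT cells.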
